A study of Arabidopsis thaliana with 6 samples.

Results

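The protein-coding genes around the centromere of Arabidopsis chromosome 3 were described in leaves of ddcc plants and of wild-type plants. Members were the count-table entries with the annotation name Araport11 and a locus number from AT3G29000 to AT3G33999, without AT3G30720 (QQS). The rule gave 172 of the 27650 Araport11 entries, and all 172 matched a protein-coding locus of the RefSeq annotation of assembly TAIR10.1. Of these, 171 lay on chromosome 3 between positions 11005638 and 14095588, which is 13.2% of its length. AT3G29794 alone lay outside, at 14884504 to 14885709, and had 0 counts in every library. In that stretch the annotation held 429 pseudogenes beside 172 protein-coding genes, and these pseudogenes were 48.9% of the 878 of the chromosome. Pseudogene is here the class given by that annotation, and how many of these entries are transposon genes was not examined. No position of the centromere itself was used here.

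Plants called ddcc are mutant for the 4 DNA methyltransferase genes DRM1, DRM2, CMT2 and CMT3 together, and they were set against wild-type plants. There were 3 libraries of polyadenylated leaf RNA for ddcc, numbered 1 to 3, and 3 for wild type. All plants were of the Col-0 accession, were 28 days old and grew on soil at 21 °C with 16 h of light and 8 h of darkness. The alleles, the number of plants per library and the number of independent plants behind each genotype are not given in the sources used here, so p-values measure only the spread between these libraries, which may be technical. The comparison asks which genes are transcribed differently where methylation outside CG sites is impaired.

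Methyl groups on plant cytosines fall into CG, CHG and CHH contexts, where H stands for A, C or T. CMT3 maintains CHG methylation on chromatin that carries methylated histone H3 lysine 9, CMT2 acts mainly on CHH sites of the same kind of chromatin, and DRM2 adds methyl groups where small RNAs direct it, with DRM1 as its close relative. The regions beside Arabidopsis centromeres are densely packed heterochromatin, rich in transposons and poor in genes, and their cytosines are methylated in all 3 contexts. Ordinary genes are scattered through them, some with housekeeping roles and many that have no transcript in leaves.

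Total counts ran from 17265251 to 18809306 in ddcc libraries and from 15188586 to 17644256 in wild-type libraries, and replicates differed by more than counting error in both genotypes. Of the mutated genes, none of which lies on chromosome 3, DRM2 had 8.55, 8.06 and 7.81 CPM (counts scaled to library size) in ddcc and 17.9, 17.5 and 18.5 CPM in wild type. CMT3 had 2.76, 3.55 and 2.62 CPM in ddcc and 8.92, 10.1 and 9.85 CPM in wild type, and CMT2 had 10.6 to 11.5 CPM in ddcc and 14.5 to 16.3 CPM in wild type. DRM1 had 1, 0 and 1 counts in ddcc and 0 counts in every wild-type library, so it checks nothing. The leaf genes RBCS1A, of the Rubisco small subunit, and LHCB1.1, of the light-harvesting antenna, were abundant in all libraries. RBCS1A had 13400 to 14300 CPM in ddcc and 15100 to 17100 CPM in wild type, and LHCB1.1 had 6230 to 6760 CPM in ddcc and 8210 to 8820 CPM in wild type. In whole leaves, fewer cells of a type and less RNA per cell cannot be told apart, and the part of leaf composition in the results below was not tested.

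The results turn on a handful of genes that had 20 counts or fewer in each wild-type library. The bases before their annotated starts are shown for those that carried the most reads. AT3G29639 and AT3G29631 are shown together because their 250-base upstream windows are near copies of each other. Both are read from the RefSeq sequence of TAIR10.1 and run 5′ to 3′ on its minus strand, at chr3:11480034-11480283 for AT3G29639 and chr3:11470822-11471071 for AT3G29631. Capitals mark the bases that differ or are inserted in the alignment of the pair, in which 239 positions are identical, 9 are mismatched and 4 are gaps, an identity of 94.8%.
AT3G29639: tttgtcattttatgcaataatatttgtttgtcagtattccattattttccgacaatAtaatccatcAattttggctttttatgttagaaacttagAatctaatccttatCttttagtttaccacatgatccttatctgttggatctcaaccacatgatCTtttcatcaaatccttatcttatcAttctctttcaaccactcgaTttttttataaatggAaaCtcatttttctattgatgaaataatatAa
AT3G29631: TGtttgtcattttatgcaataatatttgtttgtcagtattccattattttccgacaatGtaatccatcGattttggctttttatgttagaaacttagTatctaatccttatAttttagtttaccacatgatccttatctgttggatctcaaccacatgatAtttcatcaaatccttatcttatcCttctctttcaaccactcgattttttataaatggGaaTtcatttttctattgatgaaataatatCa
Each window holds 2 of the letters CAG or CTG, which are the same on both strands when read together and are a context that CMT3 methylates.

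In the next windows the capitals mark CAG and CTG. The window of AT3G29080 lies on the plus strand at chr3:11069102-11069351, that of ABCG38 on the minus strand at chr3:12600433-12600682 and that of AT3G33528 on the minus strand at chr3:14084347-14084596.
AT3G29080: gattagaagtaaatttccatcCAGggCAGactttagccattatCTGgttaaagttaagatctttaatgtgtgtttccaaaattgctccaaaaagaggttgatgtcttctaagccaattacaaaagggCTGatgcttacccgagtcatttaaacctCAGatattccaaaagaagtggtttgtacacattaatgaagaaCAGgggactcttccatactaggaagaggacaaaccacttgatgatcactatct
ABCG38: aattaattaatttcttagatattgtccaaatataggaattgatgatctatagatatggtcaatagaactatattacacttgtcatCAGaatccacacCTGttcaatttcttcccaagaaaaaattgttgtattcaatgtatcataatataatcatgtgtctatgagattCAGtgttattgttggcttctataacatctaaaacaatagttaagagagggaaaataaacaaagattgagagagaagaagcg
AT3G33528: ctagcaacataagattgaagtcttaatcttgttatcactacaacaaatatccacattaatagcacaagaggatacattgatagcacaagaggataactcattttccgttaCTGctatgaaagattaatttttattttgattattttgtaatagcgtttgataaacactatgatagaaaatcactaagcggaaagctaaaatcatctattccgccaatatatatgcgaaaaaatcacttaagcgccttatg
The window of AT3G29080 held 6 such letters, a count that 16.0% of all 27443 upstream windows of the annotation reach or exceed, and 187 of its 250 bases belong to the annotated pseudogene AT3G29078. ABCG38 held 3, which 61.1% of windows reach, and AT3G33528 held 1, which 94.3% reach. These letters are present in most windows of the genome, with a median of 3 in members silent in wild type, 3 in tested members and 3 in all windows. Their methylation was not measured here.

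Most members were silent in leaves. Of the 172 members, 102 (59.3%) had 0 counts in all 3 wild-type libraries, against 22.5% of all Araport11 entries, and 120 (69.8%) had 3 counts or fewer in each. A count of 0 allows up to 3 counts, which equalled 0.175 to 0.197 CPM in the wild-type libraries, so a lower level was not detectable at this depth. In 88 members (51.2%) the count was 0 in all 6 libraries. The other 14 silent members had at least 1 count in ddcc, and in 12 of them no single ddcc library held more than 4 counts. AT3G29080 and AT3G30823 were the remaining pair, each with over 20 counts in at least 1 ddcc library. In the other direction, 6 members had counts in wild type and 0 in ddcc, and none of these exceeded 3 counts in a wild-type library. The summed counts of the 102 silent members were 233, 260 and 329 in ddcc libraries, most of them from AT3G29080.

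Some groups of members that share a name were silent throughout, and genes of the same names outside the window were not examined. All 5 members named after the domain DUF784 and all 6 named as myosin heavy chain-like had 0 counts in all 6 libraries. Of 7 terpenoid cyclases or synthases, enzymes that build terpene skeletons, 4 were silent in wild type and none was abundant enough to be tested. Of 7 HXXXD-type acyl-transferases, which attach acyl groups to specialised metabolites, 3 were silent and 2 were tested. General transcription factor 2-related zinc finger genes numbered 6, of which 5 had 0 counts in all libraries and AT3G29638 was the exception. Of 38 members named only as uncharacterized proteins, 26 were silent in wild type. Of the 7 members listed for transcription, chromatin and RNA, 4 were silent in wild type. Among them AGL79 had 0 counts in all 6 libraries, MYB121 had 0, 0 and 2 counts in ddcc, and bZIP42 had 0, 0 and 4 counts in ddcc.

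Silent members were also shorter and closer to pseudogenes than tested members, by their medians and without a test. Summed exon length had a median of 712.5 bases in silent members and 1706 bases in tested members, and the median number of exons was 3 and 5. The nearest annotated pseudogene lay at a median distance of 2284 bases from silent members and 5353 bases from tested members. At least 20% of the exon bases had a second copy in the genome, at 95% identity or more, in 33 silent members and in 4 tested members. Reads from such copies may be placed on either one, and the treatment of reads with several mapping places is not given in the sources used here. The silence of those 33 members may depend on that treatment. Among them, AT3G30383, AT3G30385 and AT3G30387 of the DUF784 group have 100% of their exon bases in a second copy. AT3G29797 and AT3G30247, also of that group, have none.

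Enough reads for a test fell on 53 members (30.8%), and 23 of them passed an adjusted p of 0.05 (28.2% of all tested features did so) in edgeR's quasi-likelihood test with Benjamini-Hochberg adjustment over all 18498 tested genes and transposable elements. Of these, 16 were higher in ddcc, 30.2% of the tested members, where 15.5% of all tested features were called higher. The other 7 were lower in ddcc, 13.2%, where 12.7% of all tested features were called lower, so the share of lower members was near the background. A size of 1 or more in log2 was reached by 8 members, all higher in ddcc, which is 15.1% of the tested members against 3.07% of all tested features. The number was 13 with no filter on low counts and 5 among members averaging 50 counts or more, and it ran from 8 to 10 when single libraries were left out, where AT3G29000 dropped below 1 without ddcc replicate 1 or wild type replicate 1 and AT3G29633 or SDR4 entered. In the lower direction 0 members reached it, called or not, against 1.49% of all tested features. The lowest value among tested members was -0.86 in edgeR, and the same gene, AT3G32980, stood at -0.86 in DESeq2 and at -1.01 without wild type replicate 2. Of those 8, 5 had 3 counts or fewer in each wild-type library and entered the test only through their ddcc counts. They were AT3G29638, ABCG38, AT3G29080, AT3G30823 and AT3G33528. AT3G29631, at 12, 8 and 2 counts in wild type, also reached the filter's minimum count of 10 in every library only in ddcc. The number of such members is a description, and their adjusted p-values, given below, are no added support. A limit chosen after the data were seen left 47 tested members that averaged 10 counts or more in wild type. Of these, 10 (21.3%) were higher and 7 (14.9%) were lower, against 14.3% and 13.0% of the 17658 Araport11 genes so limited. Increases of 1 or more in log2 were called for 2 of the 47 (4.26%), against 1.46% of those genes. The median log2 fold change was 0.06 over the 53 tested members, also with members at 0 in wild type set to their lower bound, and -0.007 over all tested genes. The number called lower rested on single libraries, being 3 without ddcc replicate 3, 4 without wild type replicate 1 and 4 without wild type replicate 2.

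**Figure D1:**
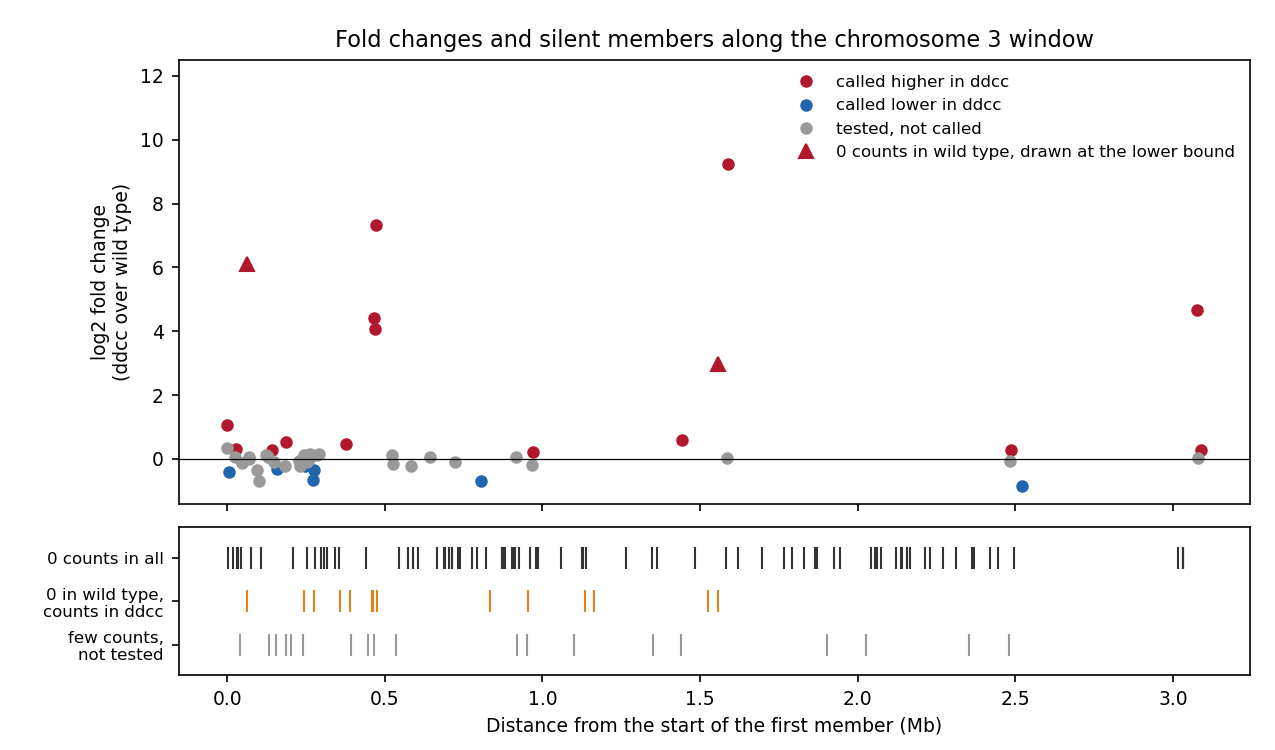
Top, log2 fold change of ddcc over wild type for the 53 tested members against distance from the start of the first member in Mb, with triangles for the 2 members at 0 counts in wild type drawn at their lower bound. Bottom, positions of untested members by class. Of the 8 large increases, 5 lie in the first 0.5 Mb, as do 34 of the 53 tested members, which is a similar share. The other called members lie between -0.86 and 0.60.

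The largest increase in reads was at AT3G29639, which encodes an uncharacterized protein (chromosome 3, 11478633 to 11480033, minus strand, 3 exons). Its counts were 3846, 3315 and 3803 in ddcc and 20, 19 and 20 in wild type. The genotypes were far apart and replicates within each were close, with 198 ± 7.30 CPM in ddcc and 1.22 ± 0.0839 CPM in wild type (SD, n = 3 each). The log2 fold change was 7.34 (SE 0.09, adjusted p 3.19e-12 in edgeR). Per kilobase of exon, AT3G29639 reached 209 CPM in ddcc, above every other member, of which PHS1 was next at 135 CPM per kilobase. In wild type it stood at 1.29 CPM per kilobase, below 44 of the other members. Of its exon bases, 32.3% have a second copy.

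AT3G29639 borders a duplicated stretch of sequence, and only its 5′ end lies inside it. A stretch of 4.3 kb from 11470642 to 11474938 aligned with one of 5.3 kb from 11479854 to 11485175 in 2 blocks of 95.3% and 95.5% identity, with 4348 aligned bases in all. AT3G29631, annotated as a nuclease, and AT3G29639 have their 5′ ends at matching ends of the copies, and their upstream windows, printed above, lie in the first block. AT3G29631 (11470374 to 11470821, minus strand) had 171, 147 and 219 counts in ddcc and 12, 8 and 2 counts in wild type. Every ddcc library was above every wild-type library, with a log2 fold change of 4.40 (SE 0.30, adjusted p 3.17e-06 in edgeR). AT3G29631 entered the test only through its ddcc counts, so the adjusted p is no added support. It has 40.2% of its exon bases in a second copy, and 73.9% of them overlap the antisense RNA gene AT3G05845, which was listed with 0 counts in every library.

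AT3G29638, a general transcription factor 2-related zinc finger gene between them, was chosen after its values were seen. It had 33, 33 and 37 counts in ddcc and 1, 3 and 1 counts in wild type (adjusted p 3.69e-05 in edgeR). The ratio of summed counts, scaled for depth, was 18.1, with an exact 95% interval of 7.5 to 56.9 that covers counting error only, and 68.7% of its exon bases have a second copy. Without wild type replicate 2 that ratio was 30.1. Below the limit for testing, AT3G29633 had 8, 24 and 12 counts in ddcc and 1, 2 and 1 counts in wild type, and AT3G29637 had 8, 11 and 10 counts in ddcc and 0, 1 and 0 counts in wild type. Of the exon bases of AT3G29637, 100% have a second copy and 47.8% overlap AT3G05855 on the opposite strand. AT3G29633 was called higher where no filter was applied and when any of ddcc replicate 1 and wild type replicates 1, 2 and 3 was left out. AT3G29645 had 1, 3 and 3 counts in ddcc and 0 in wild type, all within the limit that a count of 0 allows. AT3G29633 lies outside both copies, and these neighbours were chosen after their values were seen. In the same neighbourhood AT3G29635 and AT3G29636 had at most 2 counts in any library, and AT3G29630 had 0 counts in all 6.

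**Figure D2:**
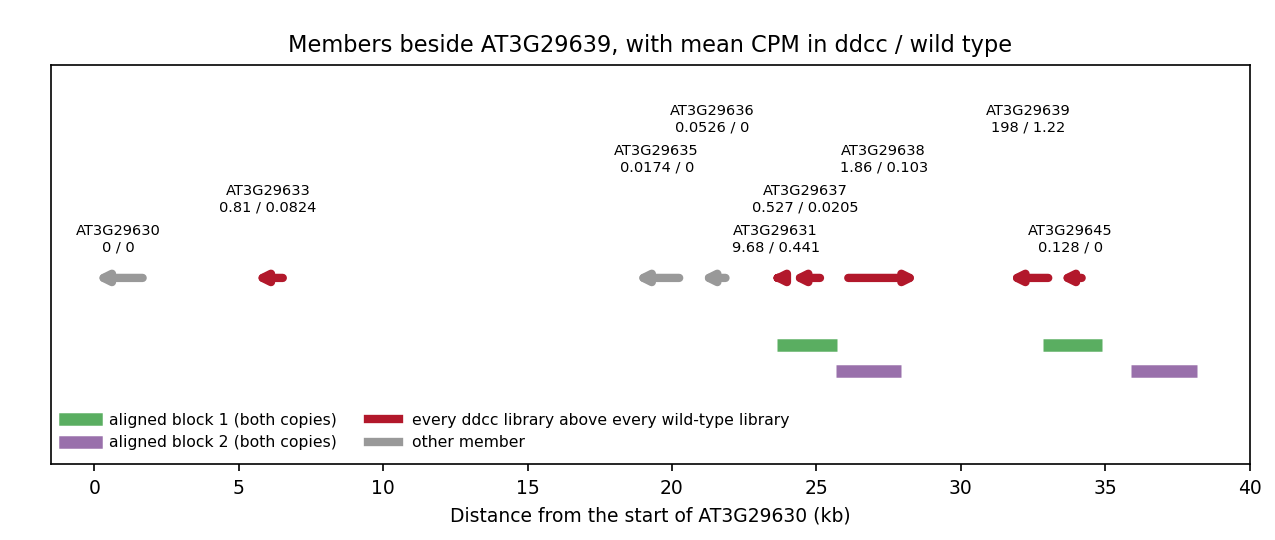
Members beside AT3G29639 as arrows in their direction of transcription, against distance from the start of AT3G29630 in kb, with mean CPM in ddcc and then wild type under each name. Red marks members in which every ddcc library was above every wild-type library, with AT3G29639 at 198 CPM in ddcc and AT3G29631 at 9.68 CPM. AT3G29645, also red, had 3 counts or fewer in every library, within the limit that a count of 0 allows. The green and purple bars mark the 2 aligned blocks in both copies.

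ABCG38 (AT3G30842, chromosome 3, 12593810 to 12600432, minus strand, 21 exons) encodes a full-size ABC transporter of the pleiotropic drug resistance type, a membrane pump driven by ATP. It had 340, 321 and 264 counts in ddcc and 0, 1 and 0 counts in wild type. All 3 ddcc libraries were high and wild type held a single read, so the ratio of summed counts was 812, with an exact 95% interval of 145 to 32100 for counting error only (adjusted p 3.42e-08 in edgeR). Without wild type replicate 2, which holds that read, ABCG38 was at least 89.9-fold higher against 3 counts per library, and without wild type replicate 1 the ratio was 525. The mean was 16.7 ± 2.28 CPM in ddcc and 0.0205 ± 0.0356 CPM in wild type (SD, n = 3 each). No part of its exons has a second copy at 95% identity, and the nearest annotated pseudogene, AT3G30844, lies 2297 bases away.

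AT3G29080 (chromosome 3, 11069352 to 11071376, plus strand, 7 exons), which encodes an uncharacterized protein, had 213, 214 and 281 counts in ddcc and 0 counts in every wild-type library. Against 3 counts per wild-type library its level in ddcc, 12.8 ± 2.02 CPM, was at least 68.9-fold higher (adjusted p 6.91e-07 in edgeR). AT3G29080 entered the test only through its ddcc counts, so the adjusted p is no added support. Its exons have no second copy, and the pseudogene AT3G29078 ends 64 bases before its start. AT3G30823, another uncharacterized gene (12560822 to 12562099, minus strand), had 13, 33 and 34 counts in ddcc and 0 counts in every wild-type library. It was at least 7.87-fold higher against the same floor (adjusted p 0.00102 in edgeR), with ddcc replicate 1 well below the other ddcc libraries. Its exons overlap the antisense gene AT3G06115, listed with 0 counts in every library, over 45.3% of their bases, and its upstream window is the only one among the 8 strongly higher members without CAG or CTG.

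AT3G33528, also uncharacterized (14082640 to 14084346, minus strand), lies at the far end of the stretch. It had 57, 41 and 26 counts in ddcc and 0, 1 and 3 counts in wild type, without overlap between genotypes. The ratio of summed counts was 27.2, with an exact 95% interval of 10.4 to 101 for counting error only (adjusted p 2.34e-04 in edgeR), and 41.4% of its exon bases have a second copy. The ratio rested on single libraries, being 17.6 without wild type replicate 1 and 74.7 without wild type replicate 3. AT3G29000, at the near end, was already expressed in wild type and encodes a protein with EF-hand motifs, which bind calcium. It had 117, 94 and 90 counts in ddcc and 32, 52 and 43 counts in wild type, a log2 fold change of 1.05 (SE 0.20, adjusted p 0.00276 in edgeR), which was 0.96 without ddcc replicate 1 and 0.85 without wild type replicate 1. Of these 8 genes, 6 have at least 5% of their exon bases in a second copy, and ABCG38 and AT3G29080 have none.

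**Figure D3:**
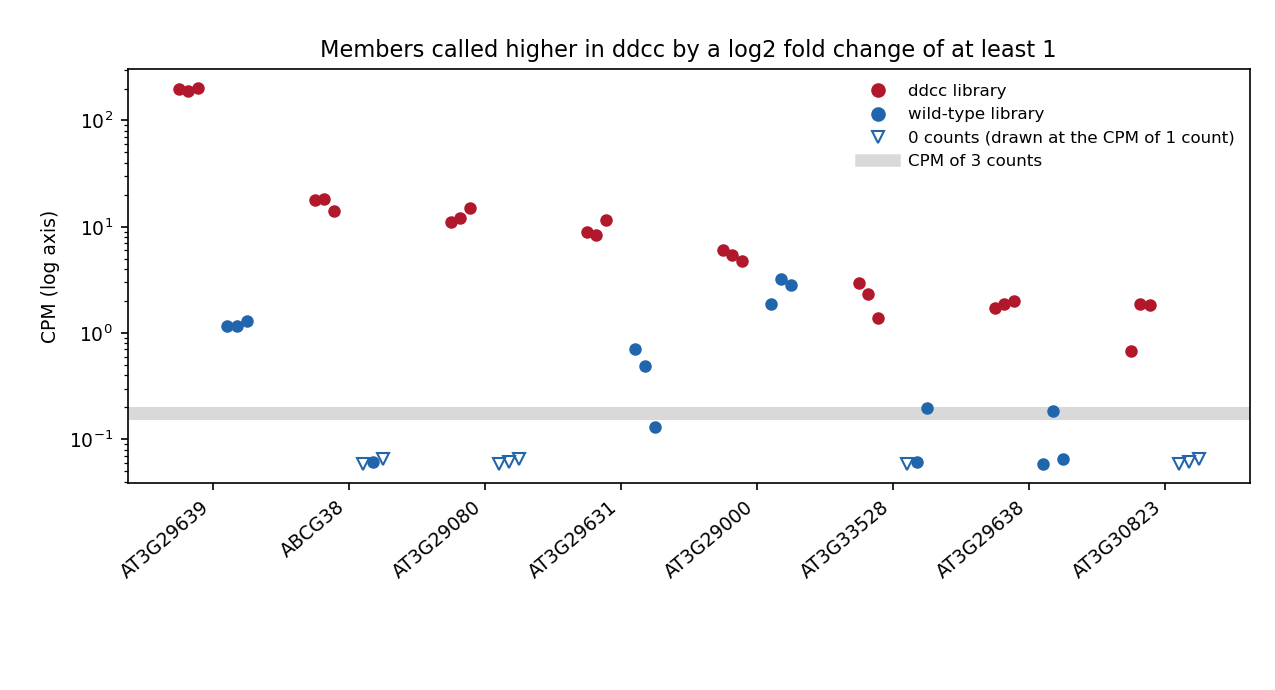
CPM on a log axis of the 8 members called higher in ddcc by 1 or more in log2, one point per library, ddcc left of wild type for each gene. Open triangles are libraries with 0 counts, drawn at the CPM of 1 count, and the grey band is the CPM of 3 counts. AT3G29639 sits near 198 CPM in ddcc, and AT3G29000 is the gene with the least distance between genotypes.

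The remaining called members were expressed in both genotypes and had log2 fold changes under 1 in size, between 0.21 and 0.60 for the 8 higher ones and between -0.86 and -0.24 for the 7 lower ones. Role lists are given by their counts, and the median log2 fold change of their tested genes ran from -0.26 in the cell wall list to 0.28 in that of transcription, chromatin and RNA. Among genes of primary metabolism, all 4 listed were tested, 1 rose and 2 fell. ERD5, which encodes the mitochondrial proline dehydrogenase that starts proline breakdown, had 54.9, 53.1 and 66.2 CPM in ddcc and 40.1, 35.7 and 39.5 CPM in wild type. The genotypes did not overlap, and the log2 fold change was 0.60 (SE 0.09, adjusted p 6.24e-04 in edgeR). PHS1, the plastid starch phosphorylase and the member with the most reads, had 8739, 7172 and 7881 counts in ddcc and 9189, 7991 and 7481 counts in wild type. Scaled for depth, it averaged 429 ± 23.6 CPM in ddcc and 507 ± 25.4 CPM in wild type (SD, n = 3 each), and its log2 fold change was -0.24 (SE 0.06, adjusted p 0.0112 in edgeR). CM1, the plastid chorismate mutase on the way to phenylalanine and tyrosine, had 11.6, 13.3 and 11.8 CPM in ddcc and 15.2, 16.0 and 14.8 CPM in wild type (log2 fold change -0.32, SE 0.08, adjusted p 0.0160 in edgeR). This call was lost with DESeq2 (adjusted p 0.0684) and without ddcc replicate 1, ddcc replicate 3 or wild type replicate 2, at adjusted p 0.0592, 0.0598 and 0.0617. UGD2, a UDP-glucose dehydrogenase that supplies sugars for cell wall polymers, did not pass the test (log2 fold change 0.15, SE 0.06, adjusted p 0.0720), though it did with library totals (0.0345).

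BR6OX2 was the only called gene among 13 listed for hormones and specialised metabolism, of which 3 were tested. It encodes the cytochrome P450 that completes the synthesis of brassinosteroids, the steroid hormones of plant growth. Its level was 41.0, 38.7 and 46.3 CPM in ddcc and 71.0, 68.2 and 67.4 CPM in wild type, so every ddcc library was below every wild-type library. The log2 fold change was -0.71 (SE 0.07, adjusted p 4.37e-05 in edgeR). PMAT2, a malonyltransferase of phenolic glucosides, had 43.4 to 54.3 CPM in ddcc and 43.3 to 44.8 CPM in wild type and did not pass the test (log2 fold change 0.13, SE 0.08).

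Of 4 cell wall genes, all tested, 2 fell and none rose. AT3G32980, a class III peroxidase, had 228, 175 and 184 counts in ddcc and 393, 245 and 301 counts in wild type, or 10.6 ± 1.13 CPM in ddcc and 19.3 ± 3.94 CPM in wild type (SD, n = 3 each). Its log2 fold change of -0.86 (SE 0.14, adjusted p 0.00129 in edgeR) was the largest decrease among the members called. EXPA5, an expansin that loosens cell walls, had 12.6, 14.1 and 9.57 CPM in ddcc and 15.7, 16.9 and 15.5 CPM in wild type (log2 fold change -0.41, SE 0.12, adjusted p 0.0321 in edgeR). The EXPA5 call was lost with library totals, at -0.37 and adjusted p 0.0525, without ddcc replicate 3, where the fold change was -0.26 at adjusted p 0.081, and without any 1 of the wild-type libraries, at adjusted p 0.0628 to 0.108. PME31, a pectin methylesterase, stood at 12.6 ± 0.478 CPM in ddcc and 12.0 ± 0.416 CPM in wild type (SD, n = 3 each) and was not called (log2 fold change 0.07).

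Among 7 listed genes of transcription, chromatin and RNA, 4 were silent in wild type, 3 were tested and 2 rose. NAC3, a NAC-domain transcription factor gene, had 345, 341 and 393 counts in ddcc and 263, 243 and 252 counts in wild type, or 19.5 ± 1.52 CPM in ddcc and 15.6 ± 0.828 CPM in wild type (log2 fold change 0.32, SE 0.08, adjusted p 0.0149 in edgeR). ARP6, a subunit of the SWR1 complex that places the histone variant H2A.Z, had 30.6, 32.3 and 32.0 CPM in ddcc and 23.1, 28.6 and 26.6 CPM in wild type (log2 fold change 0.28, SE 0.08, adjusted p 0.0245 in edgeR). Both calls depended on single libraries. NAC3 was lost without ddcc replicate 3 or wild type replicate 2, at adjusted p 0.064 and 0.0572. ARP6 was lost without ddcc replicate 3, wild type replicate 1 or wild type replicate 3, at adjusted p 0.0718, 0.0728 and 0.0506. RIK, a KH-domain RNA-binding protein gene, averaged 68.5 ± 4.57 CPM in ddcc and 62.5 ± 0.975 CPM in wild type (SD, n = 3 each) and was not called (log2 fold change 0.13), except without ddcc replicate 2 (0.18, adjusted p 0.0376).

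Of 5 signalling genes, 3 were tested and 1 rose. AFP3, of the family of proteins that bind ABI5 and restrain abscisic acid responses, had 47.6, 33.1 and 41.3 CPM in ddcc and 32.4, 26.9 and 29.0 CPM in wild type. The groups were separated by little, since ddcc replicate 2 lay just above wild type replicate 1, and the log2 fold change was 0.47 (SE 0.12, adjusted p 0.0147 in edgeR). Without wild type replicate 2 or 3 the AFP3 call was lost, at adjusted p 0.0658 and 0.0503. KIN11, a catalytic subunit of the energy-sensing kinase SnRK1, was not called (log2 fold change 0.13, SE 0.07), with 30.5 ± 1.04 CPM in ddcc and 27.9 ± 1.42 CPM in wild type (SD, n = 3 each).

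In the 6 genes of membrane traffic and transport, 4 were tested and 2 rose, namely ABCG38 and AT3G30390. AT3G30390, a predicted amino acid transporter, had 217, 234 and 217 CPM in ddcc and 196, 185 and 198 CPM in wild type (log2 fold change 0.21, SE 0.05, adjusted p 0.0161 in edgeR). It lost its call without wild type replicate 2 (adjusted p 0.07). EXO70E1, an exocyst subunit that tethers secretory vesicles, was not called (log2 fold change 0.15, SE 0.09). All 4 chloroplast and organelle genes were tested, and 0 were called by edgeR, by DESeq2 or at an unadjusted p under 0.05. The most expressed of them, AT3G32930, annotated as a lumazine synthase, had 108 to 115 CPM in ddcc and 113 to 120 CPM in wild type (log2 fold change -0.08, SE 0.05).

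AT3G29240, a DUF179 protein gene and one of the members with the highest levels, had 214, 228 and 219 CPM in ddcc and 160, 153 and 149 CPM in wild type. The genotypes did not overlap, with a log2 fold change of 0.52 (SE 0.05, adjusted p 5.05e-05 in edgeR). The other called members were named after their values were seen. AT3G29180, a DUF1336 gene (log2 fold change 0.28, SE 0.06), and AT3G32940, a KH-domain RNA-binding protein gene (0.29, SE 0.07), were higher in ddcc. P1R3, of unknown function (-0.65, SE 0.19), and AT3G29375, an XH-domain gene (-0.34, SE 0.10), were lower in ddcc. AT3G32940 lost its call without ddcc replicate 3 (adjusted p 0.0507). P1R3 lost it without ddcc replicate 3, wild type replicate 1 or wild type replicate 2 (adjusted p 0.0833 to 0.0865). AT3G29375 lost it with library totals, with DESeq2 and when any 1 of ddcc replicates 2 and 3 and wild type replicates 1, 2 and 3 was left out (adjusted p 0.0523 to 0.0989).

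**Figure D4:**
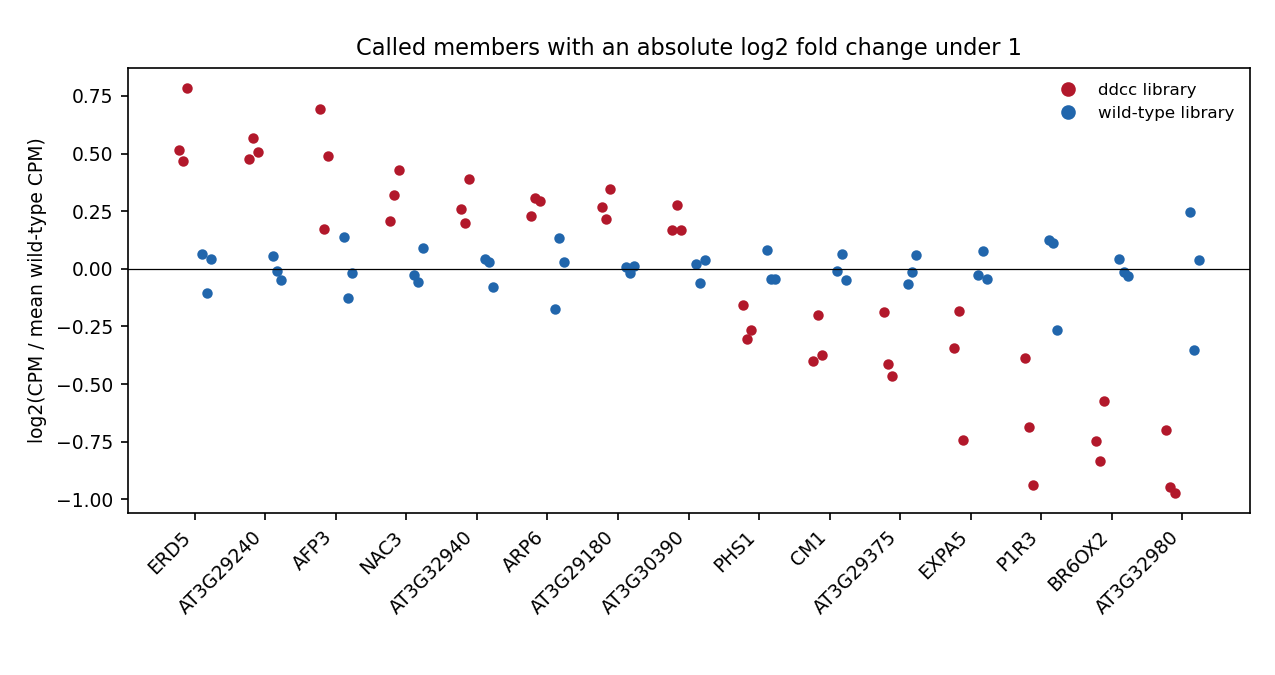
The 15 called members with an absolute log2 fold change under 1, each library's CPM relative to the wild-type mean on a log2 scale, ddcc left of wild type for each gene. ERD5 and AT3G29240 are highest in ddcc at fold changes of 0.60 and 0.52, BR6OX2 and AT3G32980 are lowest at -0.71 and -0.86, and in AFP3 the points of the genotypes come close.

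Along the stretch, expressed genes were concentrated at its near end. The first 0.5 Mb held 66 members, of which 24 were silent in wild type and 34 were tested, with 9 called higher, 5 of them by 1 or more in log2, and 5 called lower. From 0.5 to 1.0 Mb there were 44 members, 32 silent and 9 tested, with 1 called in each direction. Beyond that, 14 members were found from 1.0 to 1.5 Mb, 15 from 1.5 to 2.0 Mb and 24 from 2.0 to 2.5 Mb, of which 10, 12 and 19 were silent. In these parts 1, 3 and 2 members were tested, with 1, 2 and 1 called higher and 0 called lower. The 2 calls from 1.5 to 2.0 Mb, ABCG38 and AT3G30823, were of 1 or more in log2. From 2.5 to 3.0 Mb a single member was annotated, the peroxidase gene AT3G32980, beside 64 pseudogenes. The last part held 7 members, 4 of them silent, with AT3G33528 and ARP6 called higher.

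The share of silent genes was lower in the rest of the chromosome. It was 59.3% in the chromosome 3 window, 26.5% in the genes numbered AT3G25000 to AT3G28999 on one side, 49.7% in those numbered AT3G42000 to AT3G45999 on the other, and 21.4% in all other genes of the chromosome. Windows of locus numbers near the other centromeres had 55.2% on chromosome 1, 62.8% on chromosome 2, 39.1% on chromosome 4 and 54.2% on chromosome 5, so the value on chromosome 3 was within their range. Of tested genes, 30.2% were called higher in the chromosome 3 window, 12.7% and 17.6% in its flanks and 13.9% in the rest of the chromosome. In the other windows it was 13 of 51 on chromosome 1, 18 of 90 on chromosome 2, 28 of 140 on chromosome 4 and 10 of 106 on chromosome 5. Increases of at least 1 in log2 were called for 8 of the 53 tested members, and for 5, 7, 7 and 2 genes in those windows. The differences between windows were not tested, and the numbers of tested genes were small, at 53 for chromosome 3 and 51 to 140 for the others.

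**Figure D5:**
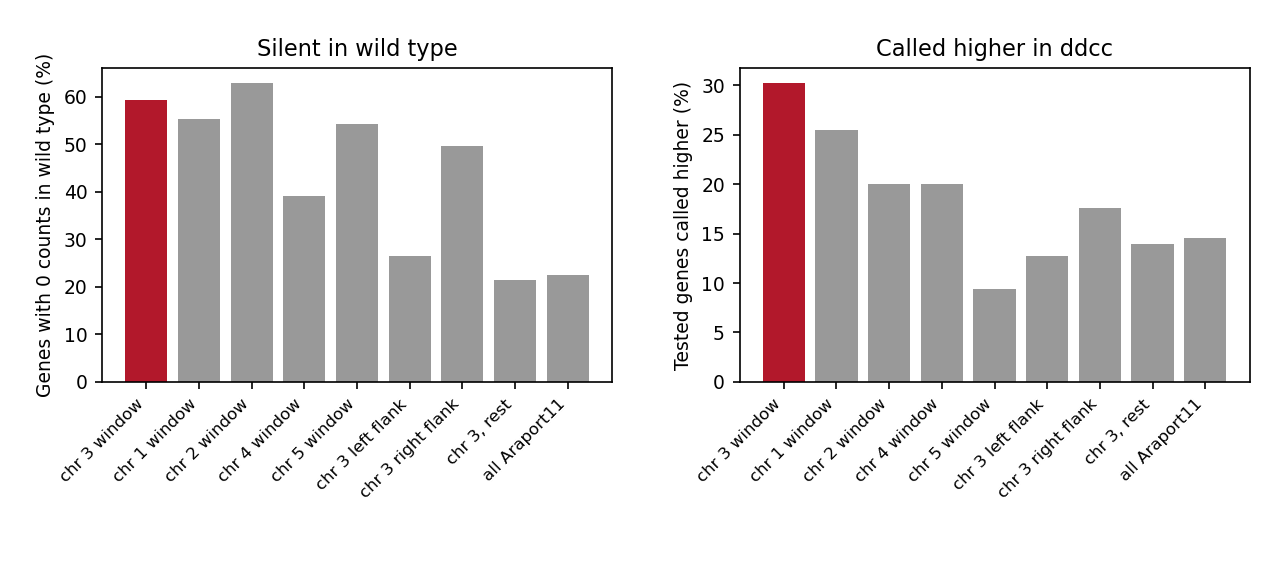
Share in percent of genes with 0 counts in wild type, left, and of tested genes called higher in ddcc, right, for the chromosome 3 window in red and for other windows of locus numbers, the flanks, the rest of chromosome 3 and all Araport11 genes in grey. Bars are counts over genes and carry no replicate error. The red bar is at 59.3% on the left and 30.2% on the right.

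Summed over all members, a larger part of each ddcc library came from the stretch, and most of the rise lay in AT3G29639. The members held 0.224, 0.217 and 0.219% of all counts in ddcc and 0.189, 0.184 and 0.189% in wild type, means of 0.220 ± 0.00361% and 0.187 ± 0.00289% (SD, n = 3 each). Every ddcc library was above every wild-type library, and the exact two-sided permutation p was 0.1, the smallest that 3 libraries against 3 can give. The 8 strongly higher genes made up 11.4, 11.2 and 11.6% of the members' counts in ddcc and 0.195, 0.278 and 0.240% in wild type. These genes were chosen for being higher in ddcc, so that contrast is a description. AT3G29639 alone held 3846, 3315 and 3803 of the members' 42088, 37384 and 40911 counts in ddcc. In wild type it held 20, 19 and 20 of 33326, 30187 and 28743 counts. The larger share is therefore not a trait of most members. Over the 45 tested members without the 8 strongly higher genes, the median log2 fold change was 0. The number of members with at least 1 count was 70, 72 and 73 in ddcc and 59, 69 and 58 in wild type (exact two-sided permutation p 0.1). After thinning every library to the smallest total it was 67, 72 and 73 in ddcc and 59, 69 and 58 in wild type, so the genotypes overlapped (exact two-sided permutation p 0.2). At least 4 counts were found for 61, 60 and 61 members in ddcc and for 50 in each wild-type library.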

How the data were processed

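Read counts in whole numbers, for each gene and transposable element in 6 libraries, were deposited by the authors. Per the submitters' processing notes, reads were handled with Trim Galore 0.6.0, cutadapt 1.15 and STAR 2.7.0f on build TAIR10. The counting program and its use of strand and of reads with several mapping places are not given in the sources used here. Genotypes and replicate numbers came from the library titles, and 0 columns were left unmatched.

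From these counts, edgeR 4.0.16 (R 4.3.3) was used to filter features (filterByExpr, minimum count 10), to scale libraries (TMM) and to test ddcc against wild type with its quasi-likelihood F test, without covariates. Benjamini-Hochberg adjustment ran over genes and transposable elements together, and calls are at an adjusted p below 0.05. The scripts were tested on simulated data. CPM used the TMM-scaled totals, and 3 counts equalled 0.156 to 0.197 CPM. Standard errors are the log2 fold change over the square root of F. Intervals and floors cover counting error only, because they leave out the spread between libraries. PCR copies were not marked by molecular identifiers, so counting error itself may be understated. Shares and numbers of detected members were compared by an exact permutation test over libraries.

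Positions, names, exons, pseudogenes and upstream bases came from the RefSeq annotation and sequence of TAIR10.1, and the file holds no coordinates to set against them. Upstream windows are the 250 bases before a gene's annotated start. The planned 50 bases after it were left out. Second copies were exon bases matched elsewhere in the genome by BLAST 2.17.0 at 95% identity or more. The same-numbered libraries correlated at -0.108, -0.055 and 0.029 in their deviations from the group means.

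Members and gene lists were chosen with earlier results of these data known. Named are called members with an absolute log2 fold change of 1 or more, 20 or more counts on average and no overlap between genotypes, called genes of the role lists with the most expressed uncalled one of each list, members at 0 in wild type with at least 20 counts in a ddcc library, and the 3 members with the highest mean CPM. Others are named as chosen after their values were seen. Alternatives were other scalings, filters and thresholds, DESeq2 1.42.0, robust dispersion, a replicate block, genes alone and leaving out each library.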

Additional observations from a re-analysis of the deposited data

How the results depend on the processing

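The number of members called higher in ddcc, 16, ran from 13 to 18 when single libraries were left out, and it was 21 with no filter beyond 1 count, 13 among members averaging 50 counts or more and 11 at an adjusted p under 0.01. A log2 fold change of at least 1 left 8 higher and 0 lower, and a limit of 10 counts on average in wild type, added after the data were seen, left 10 higher. The number called lower, 7, ran from 3 to 7 when single libraries were left out, and it was 5 with library totals, 5 with DESeq2 and 2 at an adjusted p under 0.01. The fewer calls at stricter limits follow from the limits themselves, and the cause of those lost with single libraries was not tested. The share of counts held by the members, 0.0327 percentage points larger in ddcc, was 0.039 larger without PHS1, the member with the most counts. It was not computed without AT3G29639, the member with the largest increase in reads, which carried most of the difference. Counting members at 3 counts or fewer in each wild-type library as silent gave 6 with at least 20 counts in a ddcc library, in place of 2.

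Same-numbered libraries did not deviate together, and the fit with a replicate block called 16 members higher and 6 lower, the lost call being AT3G29375. For 30 named members, 14 alternatives were fitted gene by gene, comprising scaling, filters, DESeq2, robust dispersion, the block and single libraries left out. Of these values 386 kept direction and side of the threshold, 29 lost the call, 2 gained it and none turned round, and all 29 were changes under 1 in log2. AT3G29638, AT3G30823 and AT3G33528 could not be tested at a mean of at least 50 counts. Depth limits what can be said of the silent members, whose levels under 3 counts were not detectable. The placing of reads between copies limits AT3G29639, AT3G29631, AT3G29637, AT3G29638 and AT3G33528. The same limit holds for the 33 silent members with at least 20% of their exon bases in a second copy.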

Other observations

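Between the members lay 107 further gene entries of the count table, its transposable elements not counted. Of these, 45 were long non-coding RNA genes, 61 were transcribed pseudogenes and 1 was QQS. In wild type 96 of the 107 had 0 counts, and 3 were tested. Of these QQS was the one called, at a log2 fold change of 3.73 (SE 0.31, adjusted p 1.31e-05 in edgeR), and the non-coding RNA AT3G05945 had 362, 333 and 402 counts in ddcc and 365, 309 and 309 counts in wild type. Within the second copy of the duplicated stretch, the non-coding RNA AT3G05885 had 5, 2 and 6 counts in ddcc and AT3G05895 had 5, 7 and 10 counts in ddcc, and both had 0 counts in every wild-type library. The pseudogene AT3G31908 had 9, 4 and 5 counts in ddcc and 0 counts in every wild-type library. The pseudogene AT3G30214 had 5, 5 and 9 counts in ddcc and 12, 8 and 16 counts in wild type, with overlap between genotypes in counts. In CPM the genotypes did not overlap, with 0.261 to 0.481 in ddcc and 0.493 to 1.05 in wild type. The pseudogenes and untested RNAs were too low for a test.

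With no filter on low counts, 3 members beside AT3G29633 and AT3G29637 were also called higher in ddcc. SDR4, a short-chain dehydrogenase gene, had 10, 17 and 13 counts in ddcc and 2, 6 and 1 counts in wild type. AT3G30770, an aspartyl protease gene, had 13, 8 and 2 counts in ddcc and 0, 1 and 0 counts in wild type. AT3G32920, annotated as a nucleoside triphosphate hydrolase, had 8, 1 and 13 counts in ddcc and 2, 1 and 0 counts in wild type, so its genotypes overlapped in counts.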
